A study of Mus musculus with 4 samples.

Results

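The S100 genes encode small calcium-binding proteins that act inside cells by changing shape and docking onto partner proteins when calcium rises, and some of them are also released and act on receptors of other cells. In the heart S100a1 is the member known from cardiomyocytes, where it binds the calcium pump of the sarcoplasmic reticulum and the ryanodine receptor. S100a8 and S100a9 form calprotectin, a major protein of neutrophils and monocytes, and the other members described here are known from stromal, vascular and immune cells. The 9 members S100a1, S100a4, S100a6, S100a8, S100a9, S100a10, S100a11, S100a13 and S100a16 were picked by symbol from the 21885 genes counted, and all 9 were measured and passed the filter on low counts. The other 9 S100 genes in the files (S100a2, S100a3, S100a5, S100a7a, S100a7l2, S100a14, S100b, S100g and S100z) held at most 48 UMIs in any section, and 0 of them passed the filter. S100b, known from glia, was the best covered of these, with 117 UMIs over the 4 sections.

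Spatial transcriptomics on Visium arrays, which capture polyadenylated RNA on a grid of spots that can each cover several cells, was available for 4 hearts of Collagen1a1-GFP+ mice aged 8 to 12 weeks, with 1 section of each heart. The control group was 1 uninjured heart. The infarcted hearts, from mice whose left anterior descending coronary artery had been ligated, were 1 heart at 3 days post-infarction (3 dpi) and 2 hearts at 5 dpi, whose labels give 1 as female and the other as male. All 4 carried the GFP reporter driven by the Col1a1 promoter, so no section lacked it, and 3 of the 4 sections, among them the control and 3 dpi, were labelled female. Transcripts of 4 Y-linked genes went against the labels at 5 dpi, with 704 UMIs in the female-labelled section and 1 UMI in the male-labelled section, so both are named by their labels alone. Kept spots numbered 1146 in the control, 1741 at 3 dpi, 1535 in the female-labelled section and 1423 in the male-labelled section, with 3742105 to 9540940 UMIs outside mitochondrial genes per section. Mitochondrial transcripts made up 40.1% of UMIs in the control, 21.4% at 3 dpi, and 13.3% and 14.3% in the later hearts. Levels are therefore given as CPM, that is UMIs per 1000000 non-mitochondrial UMIs, and their intervals cover counting error only. Spots lay in the infarct zone (IZ) when the share of 12 cardiomyocyte genes was low over a connected patch, in border zone 2 (BZ2) within 2 spot steps of it, in border zone 1 (BZ1) at 3 to 4 steps and in the remote zone (RZ) farther out. IZ, BZ2, BZ1 and RZ held 882, 301, 155 and 380 spots at 3 dpi, 1061, 136, 97 and 200 in the female-labelled section, and 684, 104, 92 and 533 in the male-labelled section.

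All 9 members lie on mouse chromosome 3, in the order S100a1, S100a13, S100a16, S100a4, S100a6, S100a8, S100a9, S100a11 and S100a10 in RefSeq (GRCm38.p6). Promoter windows of 250 bases before to 50 bases after an annotated start were found for 8 of the 9, and 6 are shown for their common bases or for the motifs described beside them. S100a1 and S100a13 are read from opposite strands out of the same stretch of DNA, and 204 bases are common to their windows. The S100a13 window belongs to a start 202 bases inside the outer bound of the gene, and a window at that bound would have 2 bases in common with the S100a1 window. The first is chr3:90514281-90514580 on the minus strand and the second chr3:90514185-90514484 on the plus strand, both written 5′ to 3′, with the common bases in capitals.
S100a1: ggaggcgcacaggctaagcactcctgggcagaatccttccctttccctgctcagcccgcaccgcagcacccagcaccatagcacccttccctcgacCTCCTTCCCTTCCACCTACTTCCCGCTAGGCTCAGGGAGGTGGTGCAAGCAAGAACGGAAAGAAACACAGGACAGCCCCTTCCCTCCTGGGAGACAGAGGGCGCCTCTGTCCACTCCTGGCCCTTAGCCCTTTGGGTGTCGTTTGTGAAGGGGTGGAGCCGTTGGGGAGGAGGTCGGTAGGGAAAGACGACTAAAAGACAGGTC
S100a13: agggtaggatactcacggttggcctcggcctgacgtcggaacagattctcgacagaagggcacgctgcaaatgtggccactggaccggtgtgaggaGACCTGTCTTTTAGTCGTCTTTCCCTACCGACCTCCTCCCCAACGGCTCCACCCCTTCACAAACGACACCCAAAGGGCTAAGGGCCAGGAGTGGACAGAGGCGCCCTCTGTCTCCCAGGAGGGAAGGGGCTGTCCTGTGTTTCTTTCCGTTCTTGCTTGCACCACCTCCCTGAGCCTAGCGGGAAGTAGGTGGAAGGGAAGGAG

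The windows of S100a4 (chr3:90603520-90603819, plus strand), S100a8 (chr3:90668821-90669120, plus strand) and S100a9 (chr3:90695672-90695971, minus strand) each hold a TATA box, searched on both strands as TATAAA and shown in capitals. TATAAA occurs in 13.6% of the 32851 promoter windows of this length and in 3 of the 8 members with a window. The match starts 31 bases before the annotated start in S100a4 and 30 bases before it in S100a8, and directly at the annotated start in S100a9.
S100a4: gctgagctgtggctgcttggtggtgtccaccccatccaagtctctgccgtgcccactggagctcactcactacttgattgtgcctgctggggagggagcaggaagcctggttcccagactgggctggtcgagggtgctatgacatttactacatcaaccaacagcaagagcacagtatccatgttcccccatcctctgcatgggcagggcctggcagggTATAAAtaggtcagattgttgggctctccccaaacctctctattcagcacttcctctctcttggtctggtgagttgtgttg
S100a8: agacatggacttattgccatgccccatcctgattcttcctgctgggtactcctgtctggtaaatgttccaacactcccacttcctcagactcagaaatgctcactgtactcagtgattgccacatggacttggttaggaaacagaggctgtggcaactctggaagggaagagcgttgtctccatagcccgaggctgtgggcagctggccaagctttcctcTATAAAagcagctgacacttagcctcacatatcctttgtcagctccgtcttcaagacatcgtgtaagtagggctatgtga
S100a9: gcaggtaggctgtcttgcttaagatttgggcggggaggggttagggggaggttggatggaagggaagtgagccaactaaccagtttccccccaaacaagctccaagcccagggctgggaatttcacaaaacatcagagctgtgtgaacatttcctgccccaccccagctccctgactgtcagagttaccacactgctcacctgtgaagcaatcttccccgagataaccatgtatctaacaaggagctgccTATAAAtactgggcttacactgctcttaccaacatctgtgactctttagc

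The window of S100a11 (chr3:93520246-93520545, plus strand) holds 2 copies of the AP-1 motif TGANTCA, in capitals, starting 136 and 38 bases before the gene start. TGANTCA, searched on both strands, is in 7.81% of all windows, and S100a16 was the other member with a match, in the one of its 2 windows whose start lies 3892 bases inside the gene. The GC box GGGCGG was found in S100a9, S100a11 and S100a16 and in 35.7% of all windows, and the MEF2 motif, CTA and TAG with 4 bases between them, in 0 of the 8 members and 3.69% of all windows. No match overlapped another motif of this search, and the matches are descriptions of letters in these windows.
S100a11: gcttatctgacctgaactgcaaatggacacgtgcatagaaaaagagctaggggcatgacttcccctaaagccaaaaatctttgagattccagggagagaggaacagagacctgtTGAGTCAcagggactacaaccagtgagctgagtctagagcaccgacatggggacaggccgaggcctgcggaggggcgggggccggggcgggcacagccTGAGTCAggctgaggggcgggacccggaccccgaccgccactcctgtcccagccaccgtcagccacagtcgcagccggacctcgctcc

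Across whole sections, 6 members were higher in all 3 infarcted sections than in the control by at least 2-fold, S100a1 was lower by at least 2-fold, and S100a13 and S100a16 lay in between. S100a10 was past 2-fold in every infarcted section only on some scalings: at 3 dpi its log2 difference from the control was 1.09 here, 0.65 on TMM scaling and 0.9985 without cardiomyocyte genes in the total, which leaves 5 members higher. Among 3524 genes with at least 50 CPM in a section, 26.0% were higher by this rule and 8.63% lower. S100a4, S100a8 and S100a9 were at 17.9, 6.41 and 8.82 CPM in the control and entered only through infarcted sections. For them a call of higher was favoured in advance, so setting the 6 members against this share gives no support. Control and 3 dpi have 1 heart each, so no test was made between sections. S100a1 stood at 1674 CPM in the control (interval 1632 to 1716), 670 CPM at 3 dpi, 456 CPM in the female-labelled section and 798 CPM in the male-labelled section. The control was the highest section and exceeded the nearest infarcted section 2.10-fold. Over all UMIs, mitochondrial ones included, the log2 difference of S100a1 between 3 dpi and control shrank from -1.32 to -0.93, and 0 members were lower by 2-fold in every infarcted section.

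S100a8 was at 6.41 CPM in the control, from 24 UMIs, against 73.8 CPM at 3 dpi and 92.7 and 54.6 CPM in the 5 dpi female- and male-labelled sections. S100a9 was at 8.82 CPM in the control, from 33 UMIs, and at 78.1, 97.7 and 72.0 CPM in the same order. Both calprotectin genes thus had their lowest value in the control and their highest in the 5 dpi female-labelled section, with the nearest infarcted section 8.51-fold and 8.17-fold above the control.

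S100a4, known as fibroblast-specific protein and also made by immune cells, was at 17.9 CPM in the control, 189 CPM at 3 dpi, 237 CPM in the female-labelled section and 115 CPM in the male-labelled section. S100a11, which binds annexin A1, had 63.1, 458, 692 and 444 CPM in these sections. S100a6, or calcyclin, was at 324, 1510.4, 1904 and 1799.8 CPM. For all 3 genes the control was the lowest section and the female-labelled section the highest, and the nearest infarcted section was 6.45-fold, 7.04-fold and 4.66-fold above the control. The hearts at 5 dpi differed by 2.05-fold in S100a4 and by 1.06-fold in S100a6.

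S100a10, the partner of annexin A2, was at 145 CPM in the control, 309 CPM at 3 dpi, and in the 5 dpi hearts at 400 and 327 CPM. S100a13, which takes part in the release of fibroblast growth factor 1, was at 163, 234, 294 and 294 CPM, and S100a16, a widely expressed member, at 100, 140, 177 and 170 CPM. These 3 members had the smallest differences from the control among those that were higher after infarction, with the nearest infarcted section 2.12-fold, 1.44-fold and 1.40-fold above it. On TMM scaling, which centres most genes between sections, S100a13 and S100a16 at 3 dpi were only 0.09 and 0.05 above the control on the log2 scale. A spot or section level cannot tell apart more cells of a type from more RNA per cell.

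**Figure D1:**
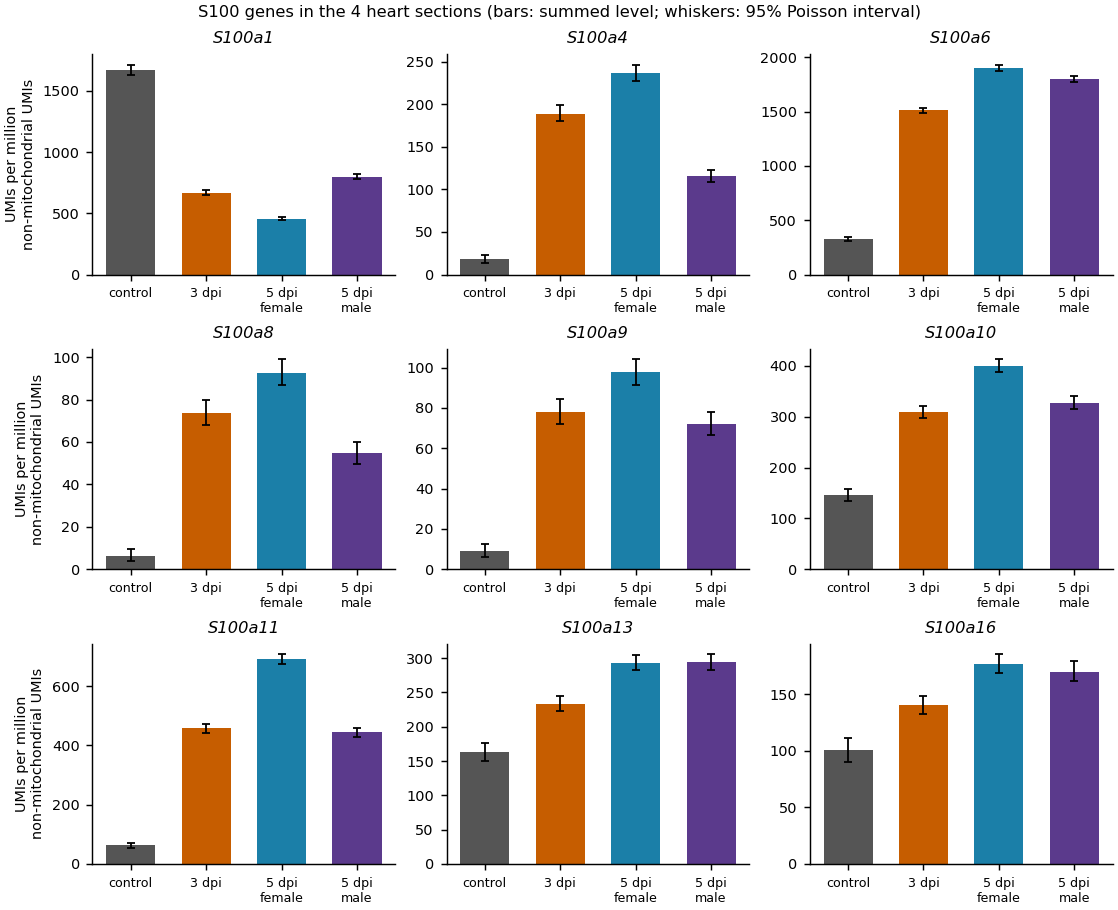
Summed level of each S100 gene in the 4 sections, in CPM of non-mitochondrial UMIs, with bars per section and whiskers for the 95% Poisson interval. S100a1 is highest in the control at 1674 CPM, and the other 8 genes are lowest there.

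Within the infarcted hearts, IZ was set against RZ to ask which members mark the infarct. S100a4, S100a6, S100a8, S100a9, S100a10 and S100a11 were higher in IZ, S100a1 was lower, and S100a13 and S100a16 did not pass the test. That is 6 members higher and 1 lower of 9, where 26.8% of the 9444 genes tested were higher and 27.0% lower (edgeR quasi-likelihood test on zone sums with the section as a block, Benjamini-Hochberg adjusted p under 0.05). The median log2 fold change was 1.03 over the members and 0.05 over all genes tested. These log2 fold changes follow TMM scaling, which shifts IZ against RZ by -0.42 relative to CPM. The hearts number 3, and the zones of a heart share its section. The lower call of S100a1, the cardiomyocyte member, was favoured in advance by the cut on cardiomyocyte genes.

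**Figure D2:**
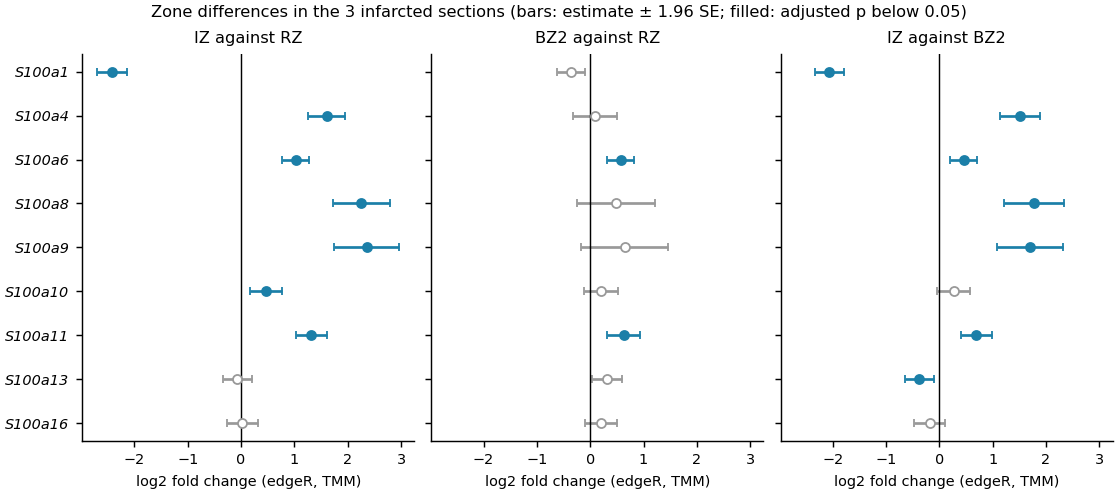
Log2 fold changes of the 9 S100 genes between zones of the 3 infarcted sections, after TMM scaling, with 95% intervals from the standard error. Filled points passed the test, and they number 7 (IZ to RZ), 2 (BZ2 to RZ) and 7 (IZ to BZ2).

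S100a1 in RZ, BZ1, BZ2 and IZ was at 1331, 1048, 946 and 373 CPM at 3 dpi. In the female-labelled section it was at 1235, 1119, 1119.9 and 275 CPM, and in the male-labelled section at 1423, 1408, 1432 and 350 CPM. At 5 dpi the border zones thus stood close to RZ, whereas at 3 dpi each zone was lower than the zone outside it, and every RZ value was below the control. Inside the infarct edge the levels went on down with depth, at 669, 359 and 189.8 CPM at 1 to 2, 3 to 4 and over 4 steps in the female-labelled section and at 949, 484 and 257 CPM in the male-labelled section. The log2 fold change of IZ against RZ was -2.42 (SE 0.14, edgeR quasi-likelihood, Benjamini-Hochberg adjusted p = 1.50e-11, with IZ lower in all 3 sections). That of BZ2 against RZ was -0.36 and did not pass (SE 0.14, edgeR quasi-likelihood Benjamini-Hochberg adjusted p = 0.12), with -0.53 and adjusted p = 0.0107 in the same edgeR test when the limit on the cardiomyocyte share was set lower.

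The 12 cardiomyocyte genes that set the zones had a median log2 fold change of -3.98, with all 12 lower in IZ, a direction that the definition of IZ fixed and that is no measure for S100a1. Per 1000 UMIs of these genes, S100a1 gave 16.5 UMIs in the control. In RZ it gave 13.6 at 3 dpi, 14.2 in the female-labelled section and 17.4 in the male-labelled section, and in IZ it gave 18.2 (interval 17.4 to 19.1), 40.9 (39.1 to 42.7) and 40.3 (38.4 to 42.3). The ratio in IZ was above that in RZ in each infarcted section and the highest zone values were those of the hearts at 5 dpi. The denominator also set the zones, so these ratios are given with no test. Of its calcium-handling partners, Atp2a2, the calcium pump, changed by -3.43 (SE 0.20, edgeR quasi-likelihood test, Benjamini-Hochberg adjusted p = 1.1e-11) and Ryr2, the ryanodine receptor and also one of the 12 genes, by -3.05 on the log2 scale. Both are partners of S100a1 in cardiomyocytes, so the cut of the zones favoured their fall in advance.

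**Figure D3:**
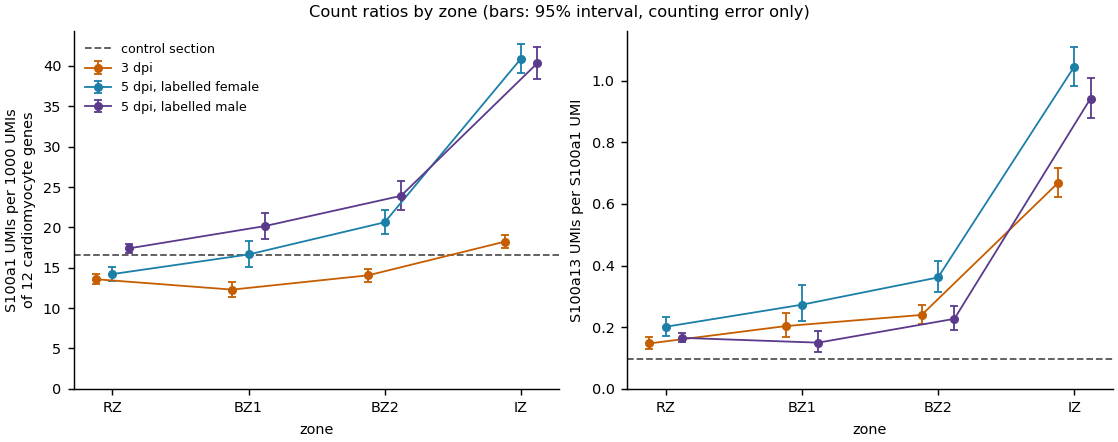
S100a1 UMIs per 1000 UMIs of 12 cardiomyocyte genes (left) and S100a13 UMIs per S100a1 UMI (right) by zone, with 95% intervals for counting error and the control as a dashed line. In IZ the left ratio reaches 40.9 and 40.3 at 5 dpi against 18.2 at 3 dpi, and the right ratio 1.05 and 0.94 against 0.67.

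S100a13, the neighbour of S100a1, had another pattern. In RZ, BZ1, BZ2 and IZ it was at 196, 213, 227 and 249 CPM at 3 dpi, at 248, 305, 405 and 287 CPM in the female-labelled section, and at 235, 211, 325 and 330 CPM in the male-labelled section. Taken by distance, its highest level in each infarcted section lay 1 to 2 steps inside the infarct edge, at 260 (counting interval 238 to 283), 415 (378 to 455) and 367 CPM (317 to 423). In each section this interval overlapped that of a neighbouring group of steps, so counting error does not set the peak apart. For IZ against RZ its log2 fold change was -0.07 (SE 0.14, edgeR quasi-likelihood Benjamini-Hochberg adjusted p = 0.707). Without TMM scaling the sign turned, to 0.35 with adjusted p = 0.0339 in the same edgeR test. For IZ against BZ2 it was -0.38 (SE 0.14, edgeR quasi-likelihood Benjamini-Hochberg adjusted p = 0.0431), a call that 2 of 12 alternatives kept. S100a13 UMIs per S100a1 UMI, a ratio that compares zones and not the genes, went from 0.15, 0.20 and 0.17 in RZ to 0.67, 1.05 and 0.94 in IZ at 3 dpi and in the female- and male-labelled sections, against 0.10 in the control.

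S100a8 in RZ, BZ1, BZ2 and IZ was at 10.5, 15.7, 36.1 and 109 CPM at 3 dpi. In the female-labelled section it was at 35.8, 29.4, 26.4 and 109 CPM, and in the male-labelled section at 9.27, 18.3, 5.84 and 86.8 CPM, the BZ2 value of the latter from 3 UMIs. IZ was the highest zone in each section, and RZ of the female-labelled section stood above RZ of the other infarcted hearts. The 4 erythroid markers were also highest there, at 33250.5 CPM in RZ against 6873 CPM at 3 dpi, 15423 CPM in the male-labelled section and 8667 CPM in the control, and the part of blood in these levels was not tested. S100a9 was at 8.28, 14.1, 40.0 and 117 CPM at 3 dpi, at 34.6, 69.6, 24.9 and 113 CPM in the female-labelled section and at 13.3, 32.1, 13.6 and 113 CPM in the male-labelled section. The log2 fold changes of IZ against RZ were 2.26 for S100a8 (SE 0.27, edgeR quasi-likelihood Benjamini-Hochberg adjusted p = 5.91e-07) and 2.36 for S100a9 (SE 0.31, adjusted p = 1.83e-06 in the same edgeR test), each higher in 3 of 3 sections. Between BZ2 and RZ neither gene passed, and their intervals, -0.25 to 1.21 and -0.17 to 1.46, were wide.

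Both calprotectin genes were concentrated deep in the infarct. More than 4 steps inside the edge S100a8 was at 208 CPM at 3 dpi, 135 CPM in the female-labelled section and 102 CPM in the male-labelled section, against 41.2, 30.8 and 17.1 CPM in the outer 1 to 2 steps. S100a9 was at 209, 136 and 128 CPM more than 4 steps inside, against 48.7, 37.1 and 51.3 CPM in the outer 1 to 2 steps. In the maps of single spots the high values form patches along part of the infarcted wall, not an even band.

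After thinning each spot to 1534 non-mitochondrial UMIs, which left out 4 to 87 IZ spots per section, 22.4% of IZ spots at 3 dpi held a UMI of S100a8 or S100a9, 23.2% in the female-labelled section and 17.5% in the male-labelled section. The unthinned shares were 41.4%, 49.1% and 44.9%. In the control the thinned share was 1.84% (exact binomial interval 1.11% to 2.86%), and in RZ it was 3.81%, 11.1% and 2.32% in the same order of infarcted sections. S100a9 gave 1.07 UMIs per S100a8 UMI in IZ at 3 dpi (interval 0.95 to 1.2), 1.03 in the female-labelled section (0.94 to 1.14) and 1.3 in the male-labelled section (1.14 to 1.48). The interval of the female-labelled section ended where that of the male-labelled section began, and the control, with few UMIs, was at 1.38 (0.79 to 2.43).

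Neutrophil markers other than these genes were sparse. The list of 9 markers summed to 12 UMIs in the control, 348 at 3 dpi, 422 in the female-labelled section and 253 in the male-labelled section, or 3.21, 41.6, 44.2 and 30.4 CPM. Ly6g, a defining neutrophil marker, was at 0 UMIs in the 3 dpi section and in the male-labelled section, the only list gene at 0 there. In the control 5 of the 9 were at 0, and Ly6g was not among them. In IZ the list was at 55.7, 48.4 and 45.9 CPM, against 12.8, 23.9 and 7.65 CPM in RZ, and 2 of its 9 genes could be tested, 1 of which was higher in IZ. IZ spots with S100a8 or S100a9 after thinning held this list at 2.32-fold, 2.29-fold and 2.90-fold the level of IZ spots without them, the macrophage list at 1.21-fold, 1.11-fold and 1.18-fold and the cardiomyocyte list at 0.63-fold, 0.40-fold and 0.36-fold. The part of these cells in the levels was not tested.

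**Figure D4:**
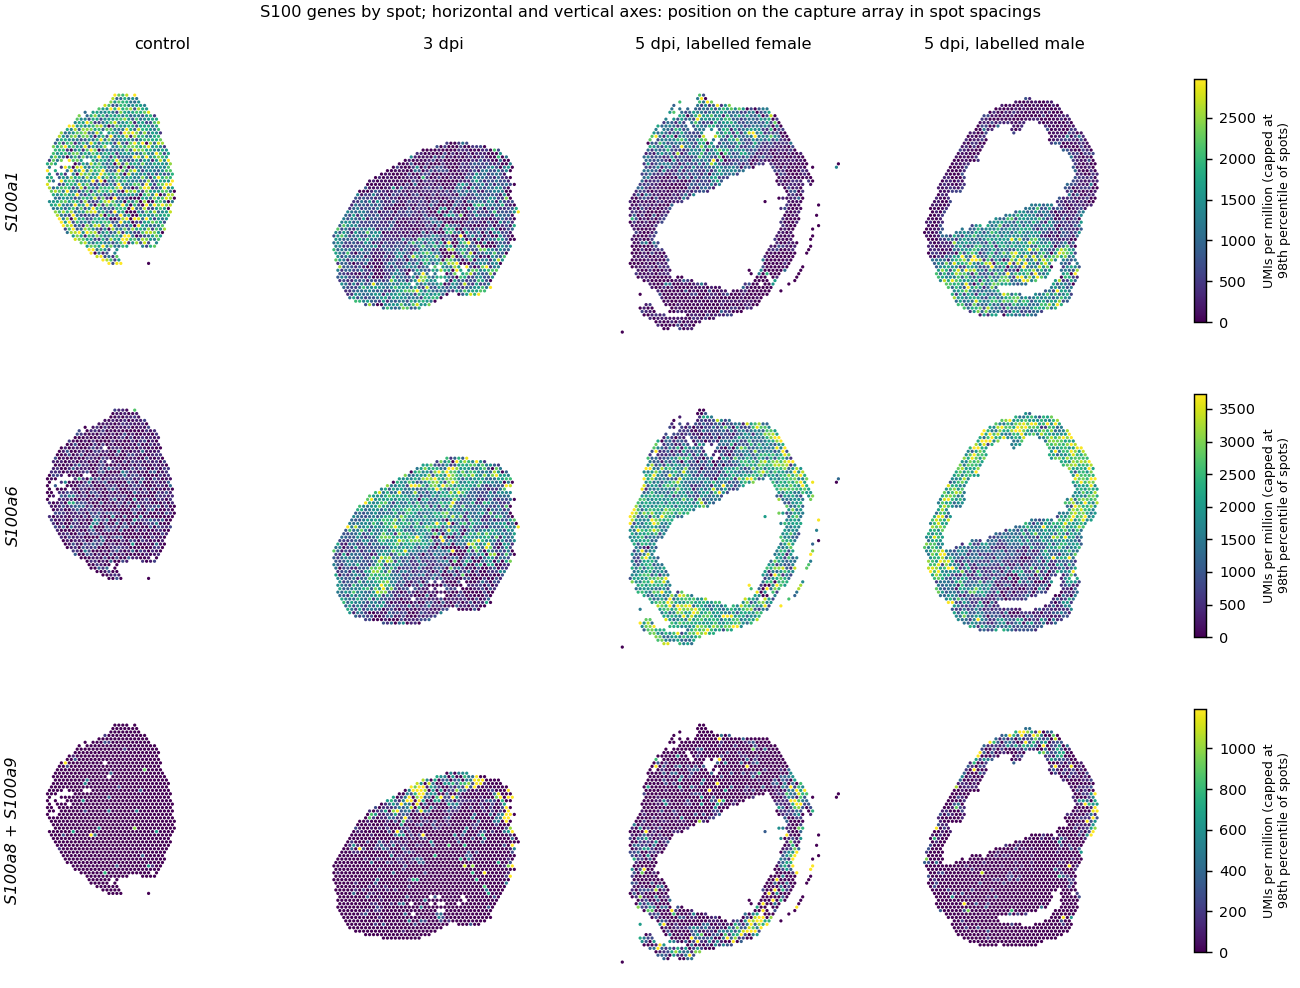
Level of S100a1, S100a6 and the sum of S100a8 and S100a9 in each kept spot of the 4 sections, with both axes giving the position on the capture array in spot spacings and colour giving CPM of non-mitochondrial UMIs. S100a1 is low where S100a6 is high, and S100a8 with S100a9 stands in patches of the infarcted wall.

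S100a4 in RZ, BZ1, BZ2 and IZ was at 62.5, 90.8, 104 and 258 CPM at 3 dpi, at 59.7, 77.6, 70.4 and 282 CPM in the female-labelled section and at 46.3, 32.1, 31.1 and 167 CPM in the male-labelled section. IZ did not overlap the other zones of any section. Its log2 fold change was 1.61 for IZ against RZ (SE 0.18, edgeR quasi-likelihood Benjamini-Hochberg adjusted p = 1.68e-07) and 1.51 for IZ against BZ2 (SE 0.19, adjusted p = 2.09e-06 in the same edgeR test), each higher in 3 of 3 sections. For BZ2 against RZ it was 0.10 (SE 0.21, edgeR quasi-likelihood Benjamini-Hochberg adjusted p = 0.868), with 1 of 3 sections lower.

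S100a6 began to rise before the infarct edge. It was at 555, 894, 1173 and 1929.9 CPM in RZ, BZ1, BZ2 and IZ at 3 dpi, at 879, 1202, 1425 and 2099 CPM in the female-labelled section and at 949, 1227, 1270.5 and 2342 CPM in the male-labelled section. The order RZ, BZ1, BZ2, IZ held in all 3 sections, and every RZ value was above the control at 324 CPM. BZ2 was higher than RZ by a log2 of 0.57 (SE 0.13, edgeR quasi-likelihood Benjamini-Hochberg adjusted p = 0.00684), and IZ higher than RZ by 1.03 (SE 0.13, adjusted p = 9.52e-07 in the same edgeR test).

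S100a11 behaved likewise, at 130, 229, 330 and 610 CPM at 3 dpi, 257, 327, 386 and 787 CPM in the female-labelled section and 218, 222, 304 and 594 CPM in the male-labelled section, again in the order RZ, BZ1, BZ2, IZ. BZ2 was higher than RZ by a log2 of 0.63 (SE 0.15, edgeR quasi-likelihood Benjamini-Hochberg adjusted p = 0.0133), and IZ higher than RZ by 1.32 (SE 0.15, adjusted p = 2.33e-07 in the same edgeR test). S100a6 and S100a11 were the only members called between BZ2 and RZ, 2 of 9 higher and 0 lower, where 4.21% of genes were higher and 4.80% lower. Of the fibroblast markers 4 of 7 were also higher in BZ2 than in RZ, with a median log2 fold change of 1.11, and of the macrophage markers 4 of 8, with a median of 0.51, and their part in the levels of both genes was not tested. Fibroblast markers summed to 7384, 11221 and 8541 CPM in BZ2 and macrophage markers to 2774, 3209 and 2298 CPM, at 3 dpi and in the female- and male-labelled sections. Without the 5 dpi female-labelled section neither passed, with log2 values of 0.59 and 0.72, and without the 3 dpi section S100a11 was at 0.37 and did not pass. Neither gene passed without the section block. S100a6 kept its call in 10 of 12 alternatives and S100a11 in 8 of 12. A pseudogene of S100a11 lies on chromosome 12, and how reads common to both were counted is not given in the sources used here.

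Between IZ and BZ2, 5 members were higher and 2 lower, where 14.5% of genes were higher and 19.9% lower. Besides those already given, S100a8 changed by 1.77 (SE 0.28, edgeR quasi-likelihood Benjamini-Hochberg adjusted p = 4.38e-05), S100a9 by 1.71 (SE 0.32, adjusted p = 2.18e-04 in the same edgeR test), S100a11 by 0.69 (SE 0.15, adjusted p = 9.25e-04, edgeR), S100a6 by 0.45 (SE 0.13, adjusted p = 0.00858, edgeR) and S100a1 by -2.06 (SE 0.14, adjusted p = 1.38e-09, edgeR) on the log2 scale. S100a6 did not pass without the female-labelled section (0.51), without the male-labelled section (0.41), without the section block (0.46) or with a lower limit on the cardiomyocyte share (0.29).

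S100a10 and S100a16 had smaller differences between zones. S100a10 was at 148, 204, 260 and 378 CPM in RZ, BZ1, BZ2 and IZ at 3 dpi, at 229, 294, 283 and 435 CPM in the female-labelled section and at 273, 305, 270 and 363 CPM in the male-labelled section. IZ was its highest zone in each section, and its log2 fold change against RZ was 0.46 (SE 0.15, edgeR quasi-likelihood Benjamini-Hochberg adjusted p = 0.0157). Without the 3 dpi section this was 0.28, without the female-labelled section 0.41 and without the section block 0.42, none of which passed. S100a16 was at 107, 95.5, 140 and 154 CPM at 3 dpi, 140, 134, 170 and 184 CPM in the female-labelled section and 139, 202, 183 and 181 CPM in the male-labelled section. Its log2 fold change of IZ against RZ was 0.03, with an interval of -0.26 to 0.31 (edgeR quasi-likelihood Benjamini-Hochberg adjusted p = 0.892), and without TMM scaling 0.44 with adjusted p = 0.0112 in the same edgeR test.

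**Figure D5:**
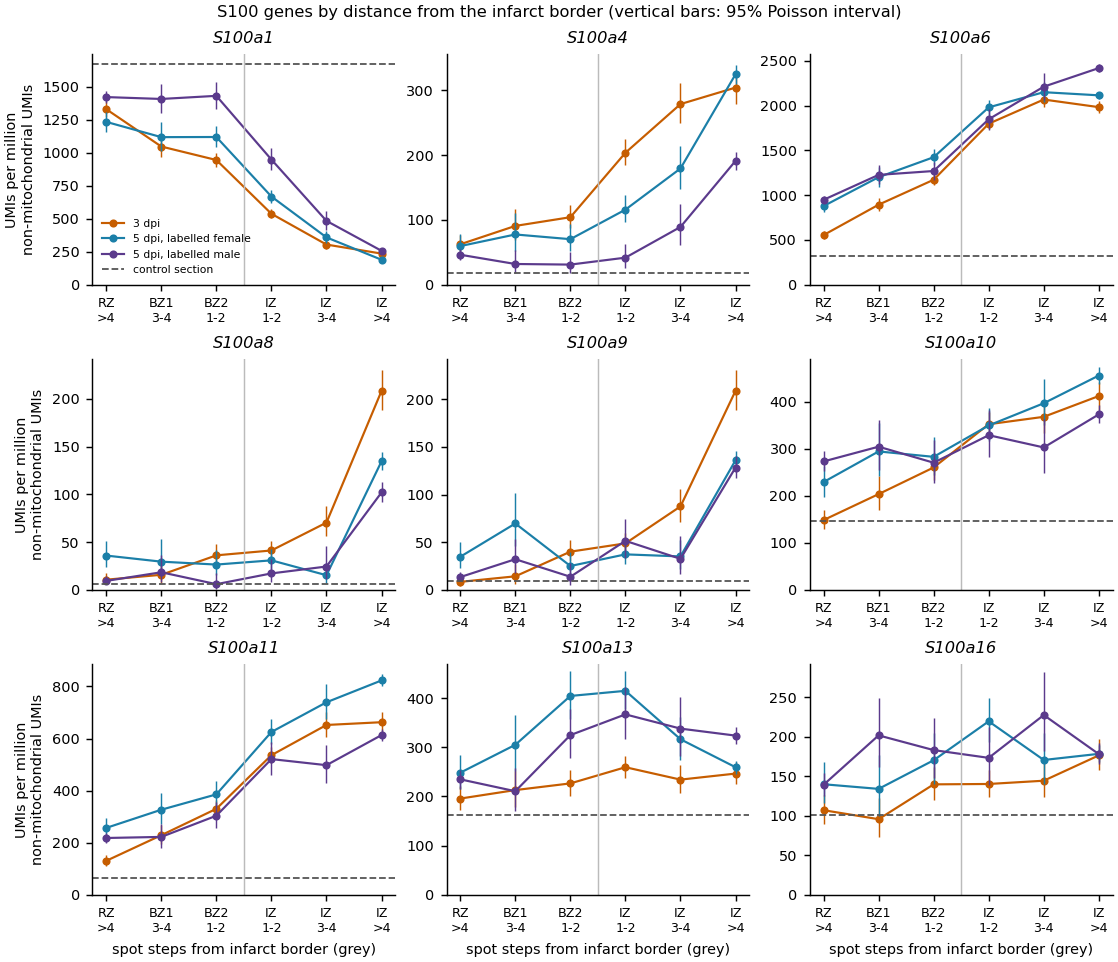
Level of each S100 gene by spot steps from the infarct border (grey line), in CPM of non-mitochondrial UMIs, for the 3 infarcted sections with 95% Poisson intervals, and the control section as a dashed line. S100a1 falls inward, S100a6 and S100a11 rise from BZ1 on, and S100a8 and S100a9 reach their highest values more than 4 steps inside.

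RZ of the infarcted hearts was set beside the uninjured heart as a description, with 1 control. S100a11 in RZ was 2.07-fold, 4.07-fold and 3.46-fold the control at 3 dpi and in the female- and male-labelled sections, S100a4 3.49-fold, 3.33-fold and 2.59-fold, and S100a6 1.71-fold, 2.71-fold and 2.92-fold. S100a1 in RZ was 0.80-fold, 0.74-fold and 0.85-fold the control. S100a8 was 1.64-fold, 5.59-fold and 1.44-fold the control, from 14, 30 and 23 UMIs in RZ, and S100a9 was 0.94-fold, 3.93-fold and 1.51-fold, and for both genes the counting interval of RZ lay above that of the control in the female-labelled section alone, the section with the most erythroid transcripts in RZ.

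Sorting spots by their cardiomyocyte share, relative to the 90th percentile of their section, is another view of the measure that cut the zones, so its likeness to them was fixed in advance and supports nothing. From the highest bin (at least 0.75) to the lowest (under 0.1), S100a1 went from 1269.8 to 153 CPM at 3 dpi, from 1226 to 155 CPM in the female-labelled section and from 1468 to 173 CPM in the male-labelled section. S100a8 went from 14.8 to 199, from 35.9 to 135 and from 8.75 to 113 CPM, and S100a6 from 586 to 2234, from 911 to 2148 and from 864 to 2492 CPM. S100a13 had its highest level in a middle bin, at 273 CPM at 3 dpi (0.1 to 0.25), 426 CPM in the female-labelled section (0.25 to 0.5) and 389 CPM in the male-labelled section (0.1 to 0.25). The counting intervals of these bins overlapped those of a neighbouring bin in each section. The control held 1 spot under 0.5, so it could not be followed down this scale.

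Whether the infarct pattern differed between days was tested as a change of the IZ over RZ difference from 3 to 5 dpi, with 1 heart at 3 dpi assumed to vary like the 2 hearts at 5 dpi. No member passed (0 of 9 by edgeR quasi-likelihood after Benjamini-Hochberg and 0 by DESeq2), where 0.752% of genes were higher and 2.23% lower. The changes of S100a6, S100a9, S100a10 and S100a11 were -0.51, -1.35, -0.69 and -0.69 on the log2 scale. Those of S100a1, S100a4, S100a13 and S100a16 were -0.25, -0.04, 0.01 and -0.12. S100a8 was at -0.94 with an interval of -1.97 to 0.09.

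Among the partners and receptors, 15 of 18 could be tested, and 4 were higher and 6 lower in IZ than in RZ, where 26.8% of all genes tested were higher and 27.0% lower. Ryr2 is one of the genes that set the zones, so its direction was fixed by their definition, and without it 14 were tested, with 4 higher and 5 lower. Of the 5 annexins on the list, Anxa1, Anxa2 and Anxa5 were higher, while Anxa6 at -0.08 and Anxa11 at -0.30 did not pass (edgeR quasi-likelihood Benjamini-Hochberg adjusted p = 0.634 and 0.137), nor did Ahnak at 0.17 (adjusted p = 0.295, edgeR). Anxa2, the partner of S100a10, was at 198, 337 and 273 CPM in RZ and 720, 754 and 715 CPM in IZ at 3 dpi and in the female- and male-labelled sections, a log2 fold change of 1.05 (edgeR quasi-likelihood Benjamini-Hochberg adjusted p = 1.67e-06). Anxa1, known to bind S100a11, changed by 1.68 (adjusted p = 6.5e-08, edgeR), Anxa5 by 0.85 and Myh9, the non-muscle myosin heavy chain bound by S100a4, by 0.94. S100a10 gave 0.75, 0.68 and 1.0 UMIs per Anxa2 UMI in RZ and 0.52, 0.58 and 0.51 in IZ, against 1.47 in the control. Tlr4 and Ager, which are receptors of calprotectin, were thinly covered. Tlr4 was at 4.01 CPM in the control and 12.5 to 16.5 CPM in infarcted sections and did not pass between IZ and RZ. Ager was at most 3.51 CPM in any zone and was not tested. Besides Atp2a2 and Ryr2, those lower in IZ were Cd36, a fatty acid transporter, at -2.09, Fgf1, the growth factor released with S100a13, at -2.16, Bsg at -1.07 and Ppp5c at -0.57. Cacybp, the calcyclin-binding protein, was at -0.33 and did not pass (edgeR quasi-likelihood Benjamini-Hochberg adjusted p = 0.0746).

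Fibroblast and macrophage markers were higher in IZ than in RZ, as were 6 members. The 7 fibroblast markers summed to 1058 CPM in the control and to 13137, 24263 and 21827 CPM in IZ, where RZ held 3213, 4334 and 3138 CPM, with 5 of 7 higher and 1 lower in the test. The 8 macrophage markers summed to 906 CPM in the control and to 7039, 11145 and 10612 CPM in IZ, where RZ held 1633, 1970 and 1497 CPM, with 8 of 8 higher. Over the single spots of IZ, Spearman's rho of these 6 members lay between -0.13 and 0.08 with the fibroblast list and between -0.08 and 0.25 with the macrophage list in the 3 sections. With the cardiomyocyte list it was negative for all 6, from -0.39 to -0.07, and with the neutrophil list it was 0.18 to 0.27 for S100a8 and S100a9 and -0.05 to 0.12 for the other 4. Between S100a1 and the cardiomyocyte list rho was 0.47 (882 spots), 0.56 (1061 spots) and 0.67 (684 spots), a description over spots that share a library and differ in depth. Over the 1146 spots of the control section the rho of this pair was 0.03. The part of each cell type in the members' levels was not tested.

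Over the 12 zone sums and the control section, the genes with the most similar pattern were taken from those tested, by Pearson's r of log2(CPM + 1) over 13 sums that share hearts. S100a11 was closest to Anxa2 at 0.99, then Fxyd5 and Lhfpl2, and S100a6 to Myl6 at 0.99, then Tagln2 and Dbn1. S100a1 was closest to Pstk at 0.99, then Clybl and Ivns1abp, and S100a4 to Lpxn at 0.97, then Man2a1 and Stab1. S100a10 was closest to Selenof at 0.97, then Ppia and Ptma. The calprotectin genes had other neighbours, Scpep1, Kcnn4 and Pip4k2b for S100a8 at 0.96 each and Myo5a, Pfkfb3 and Cers2 for S100a9 at 0.96, 0.95 and 0.95. S100a13 was closest to Rras, Mgp and Tspan17 at 0.94, 0.94 and 0.93, and S100a16 to Rpain, Pkd2 and Slc27a3 at 0.94, 0.90 and 0.90. Among the members themselves the highest r was 0.97, between S100a6 and S100a11, followed by 0.95 between S100a6 and S100a10 and 0.94 between S100a8 and S100a9, and S100a1 was negative with each of the other 8, from -0.91 with S100a4 to -0.36 with S100a13.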

How the data were processed

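Visium libraries of 4 mouse heart sections were mapped by the authors with Space Ranger 1.3.1 to an Ensembl-based mouse reference with GFP added, and the deposited values are unnormalized UMI counts for each gene in each spot. The labels name mm10, the methods another build. The authors marked tissue spots manually. Spots with at least 500 UMIs, 250 genes and at most 50% mitochondrial UMIs were kept, as in the study. Low-cardiomyocyte spots had a share of 12 cardiomyocyte genes under 0.5 times the section's 90th percentile, and IZ patches held at least 10 such spots. Counts were added up within each zone of a section, giving 12 sums from infarcted hearts, which were tested with edgeR 4.0.16 (limma 3.58.1, R 4.3.3): TMM, default low-count filter, section as block, quasi-likelihood test, Benjamini-Hochberg over 9444 genes, threshold 0.05, after the code was tested on simulated data. Mitochondrial genes were left out. Other steps ran in Python 3.11.15 with pandas 2.3.3, SciPy 1.17.1 and NumPy 2.4.6. Alternatives were DESeq2 1.42.0, other library sizes, zone limits, patch sizes and spot filters, no low-count filter, no block, and each section left out. The Poisson and binomial intervals are exact, at 95%, and PCR duplicates are removed by the UMIs. Hearts, not spots, are the replicates. The 4 sections hold 3198 different array barcodes, 184 of them in all 4, since barcodes mark array positions. All 9 members are named in full, other S100 genes and partners as counts with values for those that pass or have a stated role, and for each member the 3 genes of most similar pattern. The members and lists were chosen with earlier results of these data known.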

Additional observations from a re-analysis of the deposited data

Results flagged for a closer look

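In the male-labelled section, 623 spots of the matrix were not marked as lying under tissue and entered no comparison. They held transcripts of 8 members above the level of the control section: S100a4 at 236 CPM, S100a6 at 2329.7 CPM, S100a8 at 72.7 CPM, S100a9 at 82.5 CPM, S100a10 at 639 CPM, S100a11 at 699 CPM, S100a13 at 278 CPM and S100a16 at 183 CPM. The control is an uninjured heart, and the same 8 members were also above it in the kept spots of this section. No limit on UMIs, genes or mitochondrial share was set for the unmarked spots. The share of all genes above the control in them was not computed. The unmarked spots lay mainly in patches of 319, 174 and 50 spots. S100a10 was at 1143 CPM in the largest patch, against 462 and 230 CPM in the others and 363 CPM in IZ under tissue. S100a6 was at 3714 CPM in the largest patch against 2342 CPM in IZ. In the patch of 50 spots S100a1 was at 1448.5 CPM and S100a6 at 573 CPM, and the cardiomyocyte list at 84597 CPM. Erythroid genes made up 65502 CPM over the 623 spots and 109293 CPM in the patch of 174. What lay under these spots was not tested.

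S100a8 in BZ2 against RZ ran one way at 3 dpi, with a log2 ratio of 1.77 on the CPM scale, and the other way in both hearts at 5 dpi, with -0.44 and -0.67. This difference between days was not tested, and the counts are small: 46 UMIs in BZ2 at 3 dpi, and 18 and 3 UMIs in the female- and male-labelled sections. The neutrophil list in BZ2 stood at 23.5, 23.5 and 11.7 CPM in the same order.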

How the results depend on the processing

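For IZ against RZ, S100a1, S100a4, S100a6, S100a8, S100a9 and S100a11 kept their direction and their call in all 12 alternatives, with S100a1 between -2.67 and -2.0 on the log2 scale. S100a10 lost its call without the block, without the 3 dpi section and without the female-labelled section. S100a13 turned from -0.07 to 0.35 without TMM scaling. For BZ2 against RZ, the count of members higher was 0 without the section block and 1 with a higher zone limit, against 2, and the count lower was 1 with a lower limit, against 0. Leaving out single sections gave 0 to 2 members higher there. It was 0 when the female-labelled section was left out and 1 when the 3 dpi section was. For IZ against BZ2, the count lower was 1, against 2, with DESeq2, with all tissue spots, without TMM scaling, without cardiomyocyte genes in the library size, without the filter on low counts, without the section block, with patches of any size and with the higher limit, and 1 to 2 when single sections were left out, the lost call being S100a13. S100a6 in this comparison kept its call in 8 of 12 alternatives, losing it without the block, with the lower limit and without either 5 dpi section. Across sections, the count of members lower was 0 over all UMIs, against 1, and the count higher was 5, against 6, on TMM scaling and without cardiomyocyte genes in the total, with S100a10 lost. No other direction turned among called members, and the causes were not tested. Each comparison of zones within a heart is blocked by section in the reported values. No paired analysis was possible because the replicate numbers do not pair hearts across groups, with 1 heart each in the control and at 3 dpi. Leaving out a section could not be fitted for the comparison of days. With 3 to 51 UMIs per border zone, values of S100a8 and S100a9 are limited by depth.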

Other observations

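The platelet list (Pf4, Ppbp, Gp9 and Itga2b) summed to 103 CPM in the control, 606 CPM at 3 dpi, 635 CPM in the female-labelled section and 484 CPM in the male-labelled section.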
